A study of Homo sapiens with 4 samples.

Results

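A set of 10 long non-coding RNA (lncRNA) genes that carry small nucleolar RNAs (snoRNAs) in their introns was examined in HEK293T cells with and without the helicase HELZ: GAS5, SNHG1, SNHG5, SNHG6, SNHG7, SNHG8, SNHG12, SNHG15, SNHG16 and ZFAS1. They were listed by name as hosts whose spliced RNA is a known 5′ TOP transcript and substrate of nonsense-mediated decay (NMD), and all 10 were found among the 27011 gene rows of the count table. All 10 also passed the expression filter and belonged to the 11310 genes tested. HEK293T is a human embryonic kidney line, and RNA-Seq libraries were made from total RNA of WT cells (2 libraries) and Helz-null cells (2 libraries), harvested 24 h after plating, with no treatment in either group. The Helz-null cells are an edited line in which Cas9 left a short frameshifting deletion in HELZ. They were compared with cells without the edit, so a difference between the groups can belong to the edit or to the line, and these cannot be told apart. In bulk RNA, fewer cells with a transcript and less of it per cell cannot be told apart either.

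A snoRNA host gene makes 2 products from 1 primary transcript. The introns are trimmed to snoRNAs, which guide chemical modification of ribosomal and other RNAs: box C/D snoRNAs guide ribose methylation and box H/ACA snoRNAs guide pseudouridylation. The spliced exons of these hosts leave the nucleus as an RNA that is capped, polyadenylated and engaged by ribosomes at short reading frames, and they are degraded by NMD, which acts when a ribosome stops upstream of an exon junction complex. Many such hosts begin with a 5′ terminal oligopyrimidine (TOP) tract, a C at the cap followed by an unbroken run of C and T (U in the RNA). The same tract starts the mRNAs of ribosomal proteins and translation factors, and couples their translation to mTOR through LARP1. GAS5 was found through its accumulation in growth-arrested cells.

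The 5′ ends of the hosts are shown because the TOP tract is the sequence feature by which they were listed. RefSeq (GRCh38.p14) gave a start for 8 of the 10 genes, all except SNHG6 and SNHG15. Each line holds the 10 bases before the annotated start and the first 15 bases of the transcript, 5′ to 3′ on the strand of the gene, with the longest C or T run of at least 5 bases that begins within 5 bases of the start in capitals.
ZFAS1, chr20:49278632-49278656, plus strand: gccattcgTTCTTTCgcgtctgcgg
SNHG5, chr6:85678719-85678743, minus strand: gcacttcggTCTTTTacgtcggcct
SNHG12, chr1:28581859-28581883, minus strand: gcttcagcgCCCTTTCTCCCCgccg
SNHG16, chr17:76557754-76557778, plus strand: gggcggtctcgcgTTCTTTTCgagg
SNHG8, chr4:118278752-118278776, plus strand: ctcggCCTTTCacattcgggaagcg
SNHG7, chr9:136728170-136728194, minus strand: ccttctcgTCCTCTgcgtgcgccgg
SNHG1, chr11:62855871-62855895, minus strand: gagattcgttctcaTTTTTCTactg
For GAS5 the RefSeq start had no such run, and the GENCODE canonical transcript on GRCh37 begins with other bases. Its first 25 bases, with no bases before the start, are given with the run in capitals.
GAS5, chr1:173837103-173837127, minus strand: CTTTTCgaggtaggagtcgactcct

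At the first base itself, a run of at least 5 pyrimidines was present in 3 of the 8 RefSeq starts, those of SNHG5, SNHG12 and ZFAS1, against 5.2% of 35116 RefSeq promoters. When the run could begin anywhere in the first 5 bases, 5 of the 8 had one, against 17.3% of promoters. When it could begin within 5 bases on either side, a window chosen after the data were seen, 7 of the 8 had one, against 24.3%. These counts describe letters near an annotated start, which can be a few bases from the start used in HEK293T cells.

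The members also shared a reading frame of the kind that NMD acts on. In each of the 10 GENCODE canonical transcripts, the frame from the first AUG was short, from 3 codons in SNHG15 to 67 codons in SNHG7, and its stop lay more than 50 bases upstream of at least 1 exon junction. SNHG1 had 7 such junctions, GAS5, SNHG5 and SNHG12 had 5 each, and SNHG15 had 1. The first AUG was used for every gene, and in coding genes it need not begin the annotated frame. A stop placed in this way, at any frame length, was found in 39.1% of 10780 tested genes whose first AUG led to a stop. Among them were 294 lncRNA genes, of which 71.4% had it. This placement of the stop held for 71.4% of the annotated transcripts of ZFAS1, the lowest share among the members, and for 97.8% of those of GAS5, the highest.

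Library totals were 41745401 to 70464140 counts, and 3 counts corresponded to 0.0426 to 0.0719 CPM (counts scaled to the size of the library). HELZ, the edited gene, had 97.6 and 101.6 CPM in WT cells and 36.2 and 37.1 CPM in Helz-null cells (log2FC -1.44 ± 0.042 SE, adjusted p = 2.005e-29, edgeR's quasi-likelihood test), so the labels and the edited gene go together. All 5 markers usually present in HEK293 cells were detected, but some of their levels differed between the groups, and the part of this in the results below was not tested: NEFM rose from a mean of 230.4 to 427.2 CPM (log2FC 0.89) and VIM fell from 1049 to 951 CPM (log2FC -0.14), NEFL was not called, and LHX1 (2.77 and 5.62 CPM) and PAX2 (5.16 and 6.63 CPM) were below the filter. The summed level of 6 markers of other cell types was 1.85 to 2.27 CPM in WT and 2.32 to 2.46 CPM in Helz-null libraries, with PTPRC, CD3E, ALB and PECAM1 near 0. Among all tested genes, edgeR called 1522 up and 1695 down at a false discovery rate (FDR) under 0.005. With library size as the only scaling the split was 2060 up and 1312 down. All values below are CPM scaled by trimmed mean of M-values (TMM) unless said otherwise, and a gene is called only when its FDR over all genes tested is under 0.005.

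In Helz-null cells, 5 of the 10 host RNAs were down-regulated: ZFAS1, SNHG5, SNHG12, SNHG16 and GAS5. None was up-regulated, and the other 5, SNHG8, SNHG6, SNHG15, SNHG7 and SNHG1, were not called. Over all tested genes 15.0% were called down and 13.5% up, 28.4% together. The 0 up-regulated hosts were also 0 at an unadjusted p under 0.05 and 0 by DESeq2, whereas 6 were lower at an unadjusted p under 0.05 and 5 were called down by DESeq2. Of all 11310 tested genes, DESeq2 called 1279 down and 1087 up. For counts at an unadjusted p, here and below, no share over all tested genes is given. The log2FC was below 0 for 8 hosts (50.4% of all tested genes), and their median was -0.22 against -0.0016 over all genes. The log2FC of the hosts ranged from -0.53 to 0.073, and the middle 90% of all tested genes lay between -0.36 and 0.32. Both Helz-null libraries were below both WT libraries for 7 hosts (35.2% of all tested genes were lower in this way) and above both for 1 (34.4%). The 285 other lncRNA genes tested gave 10.2% down and 4.21% up, with a median of -0.041.

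**Figure D1:**
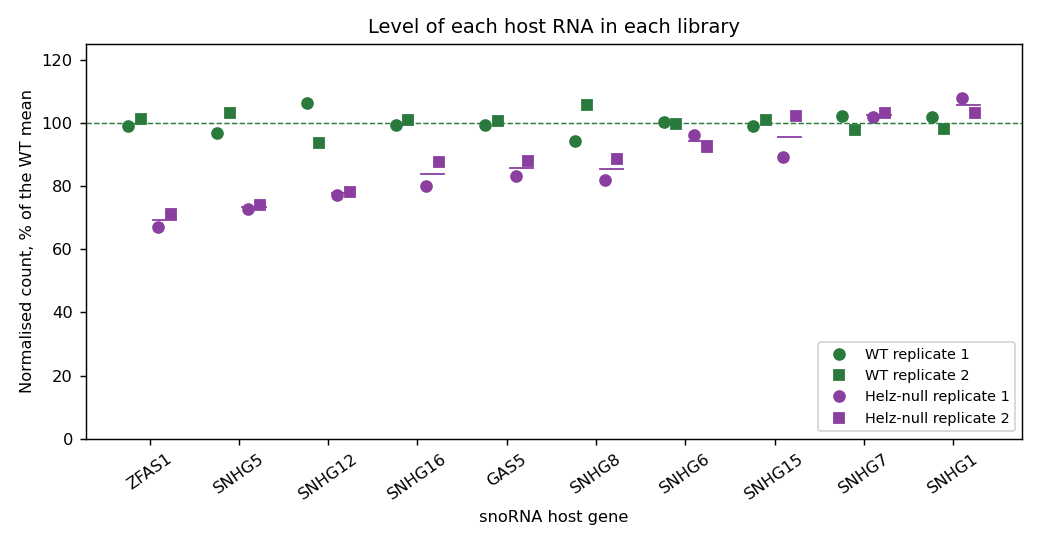
Level of the 10 snoRNA host RNAs in each library, as TMM-normalized counts in percent of the WT mean of the gene on a linear axis from 0. Green points are the WT libraries and purple points the Helz-null libraries, with circles for replicate 1 and squares for replicate 2; purple bars mark the Helz-null means and the dashed line the WT mean. Both Helz-null points of ZFAS1, SNHG5, SNHG12, SNHG16 and GAS5 lie below both WT points, those of SNHG1 lie slightly above, and SNHG15 and SNHG7 overlap.

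ZFAS1 had the largest decrease. It hosts the SNORD12 family of box C/D snoRNAs and overlaps ZNFX1, which lies on the opposite strand. ZFAS1 is on chromosome 20 (GRCh37, 47894715 to 47916137, plus strand). Its level was 43.2 and 44.2 CPM in WT cells and 29.4 and 31.0 CPM in Helz-null cells. The highest Helz-null value was 0.718 of the lowest WT value, and the replicates of each group lay close together. ZFAS1 fell by 0.53 on the log2 scale (95% interval -0.64 to -0.42), a change of -30.6%, with an adjusted p of 3.298e-11 by edgeR's quasi-likelihood test. Of all tested genes, 2.10% had a log2FC this low or lower. ZFAS1 was called under every one of 17 alternative settings, with a log2FC between -0.57 and -0.49.

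SNHG5, which hosts the pair SNORD50A and SNORD50B, is on chromosome 6 (GRCh37, 86360209 to 86388650, minus strand). It was the most abundant of the 10 per length when the gene width in the count table was used. It had 124.7 and 132.8 CPM in WT and 93.9 and 95.3 CPM in Helz-null libraries. All 4 values came from at least 3964 counts, and the groups were far apart relative to their replicates. The log2FC was -0.44 (95% interval -0.51 to -0.37, adjusted p = 5.036e-14, edgeR's quasi-likelihood test), and 3.2% of tested genes had a log2FC at or below it. SNHG5 was called under all 17 alternatives too.

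SNHG12, on chromosome 1 (GRCh37, 28905050 to 28909644, minus strand), carries snoRNAs of both classes and was the least abundant of the 10 in CPM. It had 19.4 and 17.1 CPM in WT and 14.1 and 14.3 CPM in Helz-null libraries, from 596 to 1247 counts. Its WT replicates differed more than its Helz-null replicates did, but the groups did not overlap. The log2FC was -0.37 (95% interval -0.53 to -0.21), with an adjusted p of 1.179e-04 by edgeR's quasi-likelihood test. Without WT replicate 1, the higher of the WT values, the log2FC was -0.27 and the call was lost (adjusted p = 0.0174, edgeR).

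SNHG16 and GAS5 fell by smaller amounts. SNHG16, on chromosome 17 (GRCh37, 74553809 to 74667067, plus strand), hosts the SNORD1 family and had 210.0 and 213.3 CPM in WT against 169.5 and 185.3 CPM in Helz-null libraries. Here the Helz-null replicates were less alike than the WT replicates, and both lay below WT. The log2FC was -0.25 (95% interval -0.32 to -0.18, adjusted p = 3.374e-08, edgeR's quasi-likelihood test). GAS5, on chromosome 1 (GRCh37, 173827697 to 173838020, minus strand), hosts 10 box C/D snoRNAs and had 91.0 and 92.2 CPM in WT against 76.3 and 80.5 CPM in Helz-null libraries. The 4 libraries did not overlap, and the log2FC was -0.22 (95% interval -0.30 to -0.14, adjusted p = 5.495e-06, edgeR's quasi-likelihood test). When a change of at least 1.2-fold was the null bound, ZFAS1 and SNHG5 were called and SNHG12, SNHG16 and GAS5 were not.

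SNHG8, host of SNORA24 on chromosome 4 (GRCh37, 119199858 to 119206471, plus strand), had nearly the same log2FC as GAS5 with a wider error. Its level was 26.6 and 29.8 CPM in WT and 23.1 and 24.9 CPM in Helz-null libraries. The groups did not overlap, although the highest Helz-null value was 0.937 of the lowest WT value. Its log2FC of -0.22 (95% interval -0.35 to -0.088) had an adjusted p of 0.00537 by edgeR's quasi-likelihood test, just above the threshold, and SNHG8 was called under 6 of 17 alternatives. The 17 tested genes within 5 Mb of SNHG8 had a median log2FC of -0.17, the lowest such median around any of the 10 hosts. Around the other 9 the medians lay between -0.035 (SNHG15) and 0.058 (GAS5). With the median around each host subtracted, the value of SNHG8 was -0.052 and that of GAS5 -0.28, and the median of the 10 hosts was -0.19.

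The remaining 4 hosts were not called in either direction. SNHG6, on chromosome 8 (GRCh37, 67832796 to 67838633, minus strand) and host of SNORD87, had 38.9 and 38.7 CPM in WT and 37.3 and 35.8 CPM in Helz-null libraries. Both Helz-null values were lower, with a log2FC of -0.088 whose 95% interval ran from -0.19 to 0.017. SNHG15, on chromosome 7 (GRCh37, 45022618 to 45026560, minus strand), had 37.7 and 38.4 CPM in WT and 33.9 and 38.8 CPM in Helz-null libraries. The Helz-null replicates lay on either side of WT, and the log2FC of -0.054 (-0.17 to 0.059) became 0.032 without Helz-null replicate 1.

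SNHG7, on chromosome 9 (GRCh37, 139615818 to 139622636, minus strand), had 54.1 and 51.8 CPM in WT and 54.0 and 54.7 CPM in Helz-null libraries. These values overlapped, with a log2FC of 0.035 (-0.057 to 0.13) that was -0.026 with a trend along GC content removed. SNHG1, host of 8 box C/D snoRNAs on chromosome 11 (GRCh37, 62619450 to 62623425, minus strand), had 80.3 and 77.3 CPM in WT and 85.1 and 81.2 CPM in Helz-null libraries. It was the only 1 of the 10 with both Helz-null libraries above both WT libraries, by a narrow margin, and its log2FC was 0.073 (-0.0043 to 0.15, adjusted p = 0.122, edgeR's quasi-likelihood test). Over SNHG6, SNHG15, SNHG7 and SNHG1 the intervals reached down to -0.19 and up to 0.15. Differences between hosts were not tested, and the intervals of SNHG6 and SNHG15 overlapped that of GAS5.

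**Figure D2:**
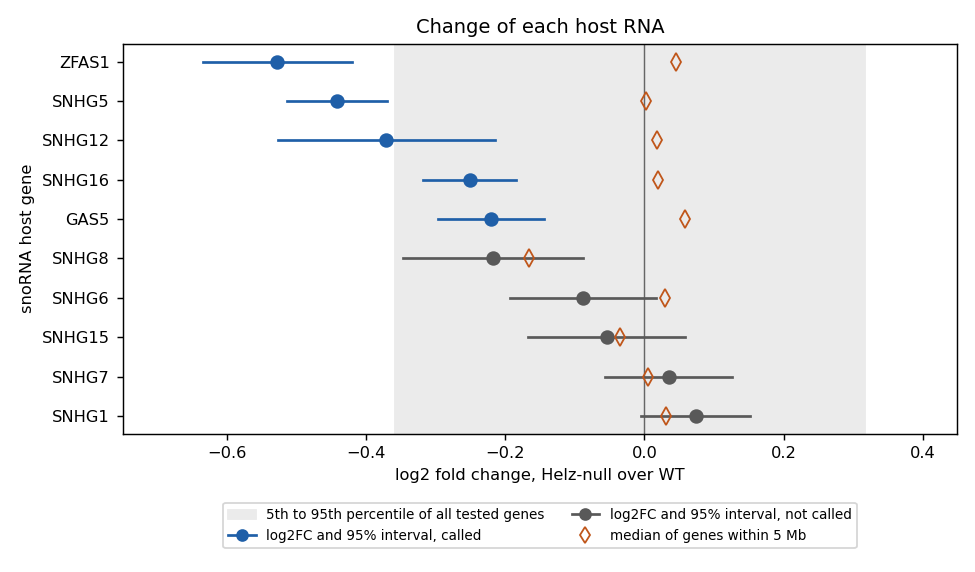
Fitted log2FC (Helz-null over WT) of the 10 snoRNA host genes with 95% intervals from edgeR, in blue where called and grey where not, with open diamonds for the median log2FC of the tested genes within 5 Mb and a shaded band from the 5th to the 95th percentile of all tested genes. The 5 called genes lie between -0.53 and -0.22, and the local medians lie near 0 except around SNHG8 (-0.17).

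The hosts were also grouped by the class of snoRNA that they carry. Of the 6 that carry only box C/D snoRNAs, 4 were down-regulated (GAS5, SNHG5, SNHG16 and ZFAS1), with a median log2FC of -0.24. Of the 3 that carry only box H/ACA snoRNAs (SNHG7, SNHG8 and SNHG15), 0 were called in either direction, and their median was -0.054. SNHG12, the 1 host of both classes, was down-regulated. Over all tested genes 15.0% were called down and 13.5% up, and with so few hosts per class the difference between the classes was not tested. Their ranges overlapped, from -0.53 to 0.073 for box C/D hosts and from -0.22 to 0.035 for box H/ACA hosts. SNHG1, the highest of the 10, is a box C/D host, and the box H/ACA host SNHG8 lay beside GAS5.

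The annotated 5′ ends were set beside the log2FC values. SNHG5, SNHG12 and ZFAS1, the 3 with a pyrimidine run from the first RefSeq base, had the 3 lowest log2FC values. This depended on the annotation: in the GENCODE canonical transcripts, a run of at least 5 from the first base was present in GAS5, SNHG12 and ZFAS1 and in no other of the 10, so that SNHG5 (log2FC -0.44) had none and GAS5 (-0.22) had one. In the RefSeq starts, the longest runs of SNHG16 and SNHG1 begin inside the transcript, at its bases 4 and 5, and their log2FC values were -0.25 and 0.073. SNHG1 also had a shorter, unmarked run of 5 bases that begins before the start and covers the first base. The marked run of ZFAS1 is placed in the same way. SNHG7 and SNHG8 had runs that begin before the start, with values of 0.035 and -0.22. No test was made.

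Per length, the order of the hosts was much the same in both genotypes. In FPKM, counts scaled by the gene width in the count table and by TMM-scaled library size, the WT means were 254 ± 11.2 for SNHG5, 144.9 ± 1.39 for GAS5 and 83.4 ± 0.92 for SNHG16 (SD, n = 2). SNHG6 followed with 82.1, then SNHG1 with 70.5, SNHG15 with 47.4, SNHG8 with 45.5, ZFAS1 with 42.5, SNHG12 with 24.7 and SNHG7 with 19.8 FPKM. In WT cells only the neighbours SNHG15 and SNHG8 overlapped between libraries. In Helz-null cells SNHG5 (186.6 ± 2.04) and GAS5 (124 ± 4.71) again led. SNHG16 moved from the third place to the fifth, with 69.9 ± 4.4 FPKM, after SNHG6 with 77.4 and SNHG1 with 74.4, although SNHG6 overlapped SNHG1 and SNHG1 overlapped SNHG16. SNHG12 (19.2) and SNHG7 (20.3) exchanged the last places. The order holds for these widths only, which differ from the lengths of the GENCODE canonical transcripts. For SNHG5 the width was 507 and the canonical length 1316 bases, and for SNHG16 they were 2538 and 498 bases.

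Summed over all 10, the host RNAs made up 725.9 and 735.5 CPM in WT cells and 616.4 and 641.9 CPM in Helz-null cells. The group means were 730.7 ± 6.79 and 629.1 ± 17.99 CPM (SD, n = 2), a log2 ratio of -0.22 or a change of -13.9%. The sum is weighted to SNHG16, SNHG5 and GAS5, which are the most abundant of the 10 in CPM in WT cells and all fell.

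Genes that overlap a host or start beside it did not move as 1 group with it. SLC3A2, the heavy chain of several amino acid transporters, starts 51 bases from SNHG1 on the opposite strand. It had 197.6 and 198.3 CPM in WT and 152.9 and 160.5 CPM in Helz-null libraries and was down-regulated (log2FC -0.33, adjusted p = 5.755e-12, edgeR), while the fitted value of SNHG1 was above 0. ZNFX1 overlaps ZFAS1 on the opposite strand, and its start is 248 bases from that of ZFAS1. Its values overlapped between the groups, with a log2FC of -0.0092 (95% interval -0.14 to 0.12).

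PRSS12, which overlaps SNHG8 on the other strand, had 10.8 and 10.5 CPM in WT and 7.86 and 8.85 CPM in Helz-null libraries and was down-regulated (log2FC -0.34, adjusted p = 0.00317, edgeR). It lay near the expression filter (mean FPKM above 2), with 2.37 and 2.295 FPKM in WT and 1.72 and 1.94 FPKM in Helz-null libraries. PRSS12 thus entered the test through its WT values, which favours a call in this direction. GAS5-AS1 (log2FC -0.21), which overlaps GAS5, was not called. FAM69B (-0.0020), which overlaps SNHG7, and TRNAU1AP (0.14), which overlaps SNHG12, were not called either. Strand use in the counting is not given in the sources used here, so reads from such overlapping pairs cannot be told apart. ZBTB37, MCMDC2, ST6GALNAC2 and ST6GALNAC1, which also overlap hosts, were below the expression filter.

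The snoRNAs within the introns left few counts. All 35 snoRNA rows of the 10 hosts had at least 1 count, but together they held only 520 to 1109 counts per library, 1.79% to 2.38% of the counts of their hosts. These counts can come from unspliced host RNA or fragments as well as from mature snoRNAs. Of the 25 rows that passed the filter, which short gene widths make easy to pass, edgeR called 0 up and 2 down, a smaller share than the 15.0% called down over all tested genes. At an unadjusted p under 0.05 there were 0 up and 3 down, and DESeq2 called 0 in either direction. Both called rows lie in GAS5. SNORD80 had 205 and 127 counts in WT and 72 and 152 counts in Helz-null libraries (log2FC -0.67, adjusted p = 9.861e-04, edgeR). SNORD44 had 34 and 13 counts in WT and 7 and 7 in Helz-null libraries (log2FC -1.81, adjusted p = 0.00346, edgeR). Summed by host, the snoRNA rows of GAS5, SNHG5, SNHG7 and SNHG16 were lower in both Helz-null libraries than in both WT libraries (35.2% of all tested genes were), and those of the other 6 hosts overlapped. Over the 10 snoRNA rows of GAS5, the level was 8.17 and 6.68 CPM in WT and 5.09 and 4.90 CPM in Helz-null libraries. Over the 2 rows of SNHG7, whose host RNA was not called, it was 0.981 and 1.03 CPM in WT and 0.876 and 0.786 CPM in Helz-null libraries. Over the 8 snoRNA rows of SNHG1 it was 2.68 and 2.00 CPM in WT and 1.89 and 2.33 CPM in Helz-null libraries, which overlapped.

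Other genes that host snoRNAs were counted in the same way. Of 18 other non-coding hosts, 12 were tested, with 0 up and 2 down (0 up and 4 down at an unadjusted p under 0.05, 0 up and 2 down by DESeq2) and a median log2FC of -0.17. This share of calls was near that over all tested genes (15.0% down). The called ones were SNHG19, with 9.69 and 9.35 CPM in WT and 7.15 and 6.88 CPM in Helz-null libraries (log2FC -0.45, adjusted p = 3.071e-04, edgeR), and SNHG3 (log2FC -0.31, adjusted p = 6.362e-09, edgeR). SNHG3 shares its locus with RCC1, so their counts can be mixed. Of these 12, 10 had a log2FC below 0 (50.4% of all tested genes), and SNHG11, at 0.19, was the highest and was not called. The count called was 1 without Helz-null replicate 2 and 4 without WT replicate 2.

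Of 44 protein-coding snoRNA hosts tested, 26 were down-regulated and 2 up-regulated, with a median of -0.12, against 15.0% down and 13.5% up over all tested genes. The 28 calls became 15 without Helz-null replicate 1, 18 without Helz-null replicate 2 and 2 with a tested fold of at least 1.2. The 22 ribosomal protein genes among them gave 15 down and 0 up (21 down and 0 up at an unadjusted p under 0.05, 15 and 0 by DESeq2). The other 22 gave 11 down and 2 up, with a median of -0.10. RPSA fell from a mean of 2128 to 1470 CPM (log2FC -0.53) and RPL4 from 2546 to 1784 CPM (log2FC -0.51). The tested genes within 5 Mb of these 2 had medians of -0.27 and -0.23, and ribosomal protein genes have many processed pseudogenes with which they can share reads. SNRPB (log2FC 0.14), a core protein of spliceosomal snRNPs, and DKC1 (0.12), the pseudouridine synthase of H/ACA particles, rose.

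The 5′ TOP mRNAs outside the ribosome gave 10 down and 0 up of 15 tested (11 down and 0 up at an unadjusted p under 0.05, 10 and 0 by DESeq2). All 15 had a log2FC below 0, with a median of -0.15. EEF1B2, EEF2, TPT1 and RACK1 are also in the list of coding snoRNA hosts above. Of these, EEF1B2, EEF2 and TPT1 were down-regulated and so are counted in both lists. Over all tested genes 15.0% were down, 13.5% up and 50.4% below 0. The count called was 6 without Helz-null replicate 2 and 0 with a tested fold of at least 1.2. NPM1, a nucleolar chaperone, fell from 2971 to 2483 CPM (log2FC -0.26), and EEF1A1, the elongation factor that delivers aminoacyl-tRNAs, fell from 10050 to 8405 CPM (log2FC -0.26). Both have pseudogene copies. Of 11 factors that bind TOP mRNAs or control them through mTOR, 1 was up-regulated (MTOR, log2FC 0.22) and 1 down-regulated (EIF4EBP1, -0.17), with a median of -0.022, a smaller share of calls than the 28.4% over all tested genes, and 1 call was left without Helz-null replicate 1. LARP1 overlapped between the groups, with a log2FC of 0.0099 (95% interval -0.047 to 0.067).

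Of 21 genes of the NMD machinery tested, 3 were up-regulated and 2 down-regulated, with a median of 0.031, a share of calls near the 28.4% over all tested genes, and 3 calls were left without Helz-null replicate 1. At an unadjusted p under 0.05, 10 were higher and 2 lower, and the same split of 10 and 2 was found at an FDR under 0.05, where 21.0% of all tested genes were up and 22.1% down. Both Helz-null libraries were above both WT libraries for 10 of the 21 (34.4% of all tested genes) and below them for 5 (35.2%). SMG5, which joins UPF1 to decay enzymes, rose from 269.3 to 326.4 CPM (log2FC 0.28), and NBAS rose with a log2FC of 0.22. SMG1, the kinase of UPF1, fell from 176.8 to 150.7 CPM (log2FC -0.23), and UPF3B fell with a log2FC of -0.15. SMG1 has near-identical pseudogene copies, so its value is uncertain. UPF1 itself, the central helicase, had a log2FC of 0.022 (95% interval -0.041 to 0.084).

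Of 14 protein-coding NMD targets, 2 were up-regulated and 4 down-regulated, with a median of -0.055, beside 13.5% up and 15.0% down over all tested genes. ATF3, a stress-induced transcription factor, had 30.4 and 29.1 CPM in WT and 39.6 and 41.9 CPM in Helz-null libraries and was up-regulated (log2FC 0.45), as was SMG5, which is in both lists. ASNS, asparagine synthetase, had 146.9 and 163.2 CPM in WT and 110.9 and 112.8 CPM in Helz-null libraries and was down-regulated (log2FC -0.47), as was TBL2 (-0.22). Among 18 proteins that form or assemble snoRNA particles, 2 were up-regulated (DKC1, and NHP2 with a log2FC of 0.10) and 3 down-regulated, with a median of -0.025, about the share called over all tested genes (28.4%). The count called was 2 without Helz-null replicate 1, 2 without Helz-null replicate 2 and 3 without WT replicate 1. NAF1, an H/ACA assembly factor, fell from 41.2 to 22.1 CPM (log2FC -0.89), beside a median of -0.54 over the 11 tested genes within 5 Mb of it on chromosome 4. PIH1D1, a box C/D assembly factor, fell with a log2FC of -0.18, and FBL, the methyltransferase of box C/D particles, had a log2FC of 0.021 (95% interval -0.036 to 0.078).

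**Figure D3:**
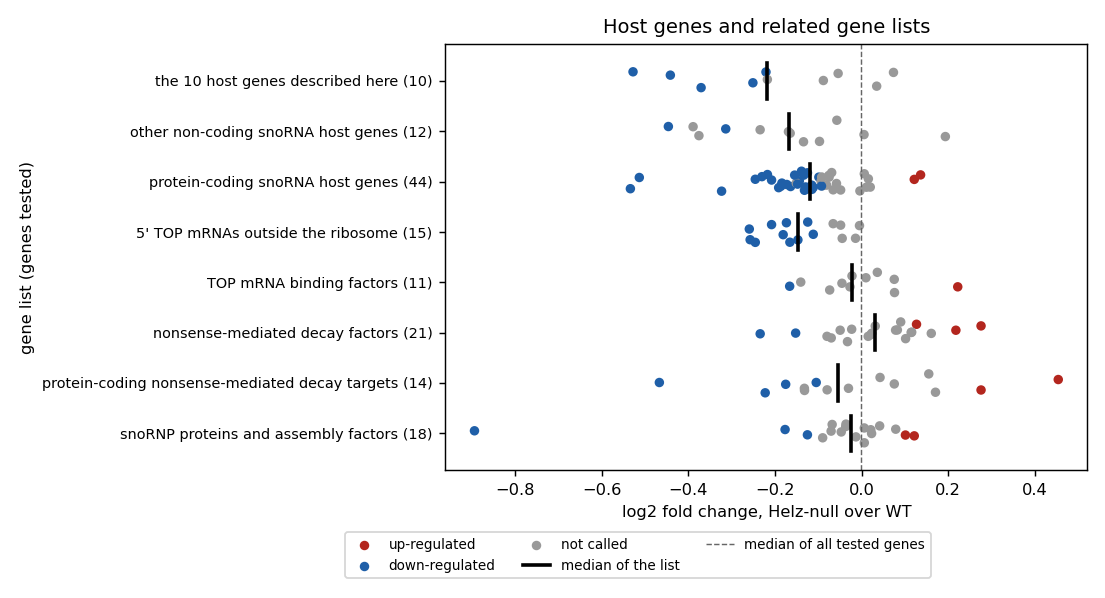
Fitted log2FC (Helz-null over WT) of every tested gene among the 10 host genes and in 7 related lists, with 1 point per gene, blue for down-regulated, red for up-regulated and grey for not called, a black bar at the median of each list and a dashed line at the median of all tested genes. The medians are -0.22 for the host genes, -0.17 for other non-coding hosts, -0.12 for coding hosts, -0.15 for TOP mRNAs, -0.022 for TOP binding factors, 0.031 for NMD factors, -0.055 for coding NMD targets and -0.025 for snoRNP proteins.

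Most of the hosts are short: 8 of the 10 were among the 2828 tested genes with widths of 43 to 1995 bases. Of those genes 13.4% were called down and 9.12% up, with a median log2FC of -0.0076. Over all tested genes 15.0% were called down and 13.5% up, with a median of -0.0016, so these short genes were less often called up. With a trend along width removed, a fit that was not planned beforehand, 5 hosts were called down and 0 up. The same counts held with a trend along GC content removed, where the median log2FC of the hosts was -0.20. Over the 17 alternative fits ZFAS1 and SNHG5 were called down in all, SNHG16 and GAS5 in 16, SNHG12 in 15, SNHG8 in 6 and the other 4 genes in 0.

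**Figure D4:**
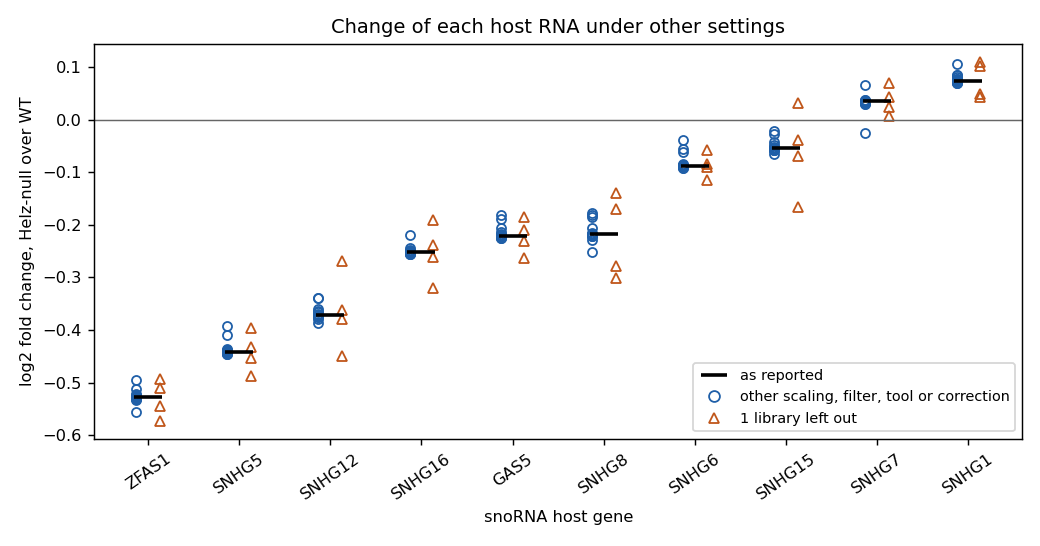
Log2FC (Helz-null over WT) of each of the 10 host genes as reported (black bar), under other scalings, filters, tools or corrections (blue circles) and with 1 library left out (orange triangles). The values of ZFAS1 stay between -0.57 and -0.49, while those of SNHG15 and SNHG7 fall on both sides of 0.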

How the data were processed

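Total RNA of WT and Helz-null HEK293T cells was sequenced in pairs of reads, with 2 libraries per genotype that the study describes as biological replicates. Bowtie2 served the authors to discard ribosomal RNA reads, TopHat2 to align the rest to hg19, and QuasR to count them per gene. The deposited values are counts without normalization, beside a gene width in bases. Versions, gene annotation, strand use and whether mates were counted singly are not given in the sources used here. The deposited comparison table, whose log2 fold changes, log2 CPM and p-values the authors computed with edgeR, was not used for its values, and its 10978 genes served as an alternative gene list.

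Counts were fitted in R 4.3.3 with edgeR 4.0.16 (TMM, estimateDisp, glmQLFit, glmQLFTest, genotype as the only term) over the 11310 genes with a mean FPKM above 2 across the 4 libraries, computed from counts, width and unscaled library size (printed FPKM values are TMM-scaled). Genes were called at a Benjamini-Hochberg FDR under 0.005. Standard errors and 95% intervals came from the log2FC and the F statistic, and the biological coefficient of variation was 2.61%. Intervals and floors (3 counts) cover counting error and the spread between these libraries only. Replicates of a group differed by more than sampling noise (chi-square per degree of freedom 4.11 for WT and 2.96 for Helz-null, and 2.05 and 1.48 with counts halved). Alternatives included DESeq2 1.42.0, other scalings, filters and thresholds, thinning, removal of GC and width trends, a replicate block and leaving out each library. The step was tested on simulated data.

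Of the 27011 rows, 22419 matched GENCODE version 44 on GRCh37 by symbol and 1213 by an older symbol. RefSeq promoters are on GRCh38.p14, and no coordinate was converted between builds. The members and all lists were chosen with earlier results of these data known. Named were the members, HELZ, genes beside the members (some are not reported here), the 2 called genes with the largest log2FC in each direction of each list, and UPF1, SMG1, LARP1, FBL and DKC1. SNHG11, SNORD44, SNORD80 and the GAS5, SNHG1 and SNHG7 snoRNA sums were singled out after their values were seen.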

Additional observations from a re-analysis of the deposited data

How the results depend on the processing

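The 10 hosts gave 5 down-regulated genes, and 5 or 6 under every alternative except a tested fold change of at least 1.2, which left 2; 0 were up-regulated under any. The median log2FC of -0.22 was between -0.27 (without Helz-null replicate 2) and -0.17 when single libraries were left out, and the summed log2 ratio was -0.18 with library size only. With the median of genes within 5 Mb subtracted, SNHG8 moved from -0.22 to -0.052. SNHG7 turned to -0.026 with the GC trend removed and SNHG15 to 0.032 without Helz-null replicate 1. The replicate numbers did not pair the libraries (r = 0.0204 over 11310 genes between the replicate differences of both genotypes); a replicate block gave 6 hosts down and 1675 genes up and 1835 down. At an FDR under 0.05, 2379 genes were up (1522 before), other non-coding hosts had 4 calls (2 before), TOP binding factors 5 (2 before) and NMD factors 12 (10 up and 2 down; 5 before). With a fold of at least 1.2, 206 genes were up and 309 down; TOP mRNAs, other non-coding hosts, TOP binding factors and NMD factors had 0 calls (0, 2, 0 and 0 at an unadjusted p under 0.05), coding hosts 2, NMD targets 2 and snoRNP proteins 1. With library size only, TOP binding factors had 4 calls and NMD factors 10; snoRNP proteins had 3 with the GC trend removed and 3 when thinned. Leaving out single libraries gave 1 to 4 calls for other non-coding hosts, 15 to 32 for coding hosts, 6 to 12 for TOP mRNAs, 1 to 2 for TOP binding factors, 3 to 5 for NMD factors and 2 to 5 for snoRNP proteins, and at fewest 1000 genes up and 1186 down without Helz-null replicate 2. Pyrimidine runs at the 5′ end were found in 3, 5 or 7 of 8 hosts by where they may begin. Where a call changed, the cause was not tested. With 2 libraries a group, differences as small as those of SNHG6, SNHG15, SNHG7 and SNHG1 were not resolved.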
